A study of Homo sapiens with 12 samples.

Results

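U6 RNA is one of the small nuclear RNAs at the core of the spliceosome. RNA polymerase III transcribes it, it enters the spliceosome base-paired to U4 RNA, and after release from U4 it pairs with U2 RNA and the 5′ splice site and holds the catalytic metal ions. U6atac takes the same place in the minor spliceosome, which removes a small class of introns. The human genome holds a few U6 genes and a large number of copies that arose by reverse transcription of the RNA, most of them annotated as pseudogenes, and their close resemblance means that an array probe can read several copies at once.

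The rows described here are the transcript clusters whose only platform gene symbol starts with RNU6- or RNU6ATAC. There were 79 of them among 67528 transcript cluster rows, carrying 78 symbols. RefSeq classes 4 as small nuclear RNA genes, namely 2 rows of RNU6-1 and 1 each of RNU6-7 and RNU6ATAC, and the other 75 as pseudogenes. In 3 sets, holding 9 rows between them, the values were identical on all 12 arrays. The first set held both RNU6-1 rows with RNU6-11P and RNU6-37P, the second RNU6-12P, RNU6-13P and RNU6-32P, and the third RNU6-17P and RNU6-18P. Each set was counted once, which left 73 distinct rows, and within a set the source of the signal cannot be told apart. The whole table held 10 rows with the values of RNU6-1, of which 4 are rows named here and 6 are annotated to RNU6-1 and RNU6-6P together.

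The arrays measured RNA of Huh7 and Hep3B cells, both established human liver cancer lines, taken 48 h after transfection. The groups were Huh7 with the siRNA, Huh7 with a negative control RNA, Hep3B with the siRNA and Hep3B with the negative control RNA, with 3 arrays each and 12 in all. The series title names a long non-coding RNA, and the labels call the reagent only siRNA, so the comparisons ask what differs when that reagent is given; the level of the long non-coding RNA is not analysed here. Nothing in the labels states that arrays within a group stem from independent cultures. The p-values therefore measure the spread between these arrays, which may be technical.

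The labels of 1 array, Huh7 control 1, disagree, with Hep3B in its description and Huh7 in every other field, and it was kept as Huh7. Its values went with Huh7. The log2 of the summed signal of KRT7, KRT19 and EPCAM ran from 7.48 to 7.79 on the Huh7 control arrays, this one included. On the Hep3B control arrays it ran from 12.17 to 12.22. Of 8 hepatocyte and liver cancer markers 7 lay above background, and ALB averaged 18.41 on the log2 scale. No measured marker of fibroblasts (3 of 4 listed) or of endothelial cells (3 of 3) did, nor did the blood cell markers PTPRC and CD14, while CD68, at a mean of 8.69, and 2 of 3 cholangiocyte markers did. Background here is the highest mean among 23 background control rows, 5.50, and 14906 rows (22.1%) lay above it. Array medians before normalization ran from 3.82 to 3.94. RNA came from whole cultures, so less RNA per cell and fewer cells of a kind cannot be told apart.

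Of the 73 distinct rows, 41 lay above background and 32 within it. The brightest was RNU6-15P, with a mean of 13.85 over the 12 arrays, and no single value of any of these rows exceeded 15.69, well under the ceiling of the table at 19.93. Signals of different rows come from different probes and are not compared as amounts of RNA. Rows whose cluster name places them on chromosome 13 were mostly dim, with 7 of 32 above background, against 34 of 41 for the other distinct rows. All 5 U6atac rows lay within background, with means from 3.02 to 4.48. For 74 rows the chromosome in the cluster name matched the one RefSeq gives for the symbol. It differed for 5, among them RNU6-7 and both RNU6-1 rows, so these rows may read a copy other than the one they are named for.

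The siRNA raised U6 rows in both lines and lowered none of them past the threshold. In Huh7 39 of 73 distinct rows were called higher (limma, adjusted p under 0.05), where 4.52% of all rows were, and 0 were called lower, against 3.49% of all rows. In Hep3B 17 were called higher, against 5.76% of all rows, and 0 lower, against 4.71%. All 17 were also called in Huh7, so 17 rows passed in both lines, where 2.32% of all rows did, 22 in Huh7 and not in Hep3B, and 34 in neither. At an unadjusted p under 0.05, 1 row was lower in Huh7, RNU6-65P at -0.33 on the log2 scale, and 1 in Hep3B, RNU6-63P at -0.39. Both lay within background, and both were picked out after their values were seen. Shares of all rows at that unadjusted threshold were not worked out.

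Markers of cell type also moved with the siRNA. Of the 8 hepatocyte and liver cancer markers, 0 were called higher and 6 lower in Huh7, and 1 higher and 4 lower in Hep3B. Among all rows above background, 14% were called higher and 12.9% lower in Huh7. In Hep3B these shares were 17.7% and 15.8%. ALB, the gene of serum albumin, changed by -1.10 ± 0.05 in Huh7 and -0.42 ± 0.05 in Hep3B. FGB was the 1 called higher in Hep3B, at 1.57 ± 0.13, and was called lower in Huh7, at -0.76 ± 0.13. TTR changed by -0.59 ± 0.13 in Huh7 and -1.62 ± 0.13 in Hep3B. GPC3 changed by -1.15 ± 0.11 in Huh7 and -1.53 ± 0.11 in Hep3B. ALB and APOB, with means of 18.41 and 17.94 against 13.43 for GPC3, the next brightest, weigh most in the list's summed signal. The log2 of the list's summed signal ran from 18.38 to 18.44 on the Huh7 siRNA arrays, against 19.32 to 19.37 on the Huh7 control arrays. In Hep3B it ran from 19.51 to 19.63 with the siRNA, against 20.02 to 20.05 with the control. CD68 changed by 1.14 ± 0.13 in Huh7 and 0.49 ± 0.13 in Hep3B. The summed signal of the 3 blood cell markers, of which PTPRC and CD14 lay within background, ran from 8.52 to 9.02 on the Huh7 siRNA arrays, against 7.62 to 7.87 on the Huh7 control arrays. In Hep3B it ran from 9.41 to 9.62 with the siRNA, against 8.96 to 9.11 with the control. EPCAM, 1 of 3 cholangiocyte markers, was also called lower in Huh7, at -0.42 ± 0.11, and COL1A2, of the fibroblast list, at -0.23 ± 0.05 within background. The part of these markers in the U6 result was not tested.

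The Hep3B count depended on single arrays. It was 10 without Hep3B siRNA array 1, 10 without Hep3B control array 1 and 11 without Hep3B control array 2. When each of the 12 arrays was left out in turn, 8 of the 17 rows were called in every fit (RNU6-1, RNU6-12P, RNU6-15P, RNU6-20P, RNU6-22P, RNU6-33P, RNU6-36P and RNU6-42P). In Huh7 26 of the 39 were called in every such fit. The Huh7 count was 21 when the fit held the 6 Huh7 arrays alone. The Hep3B count was 24 when the fit held the 6 Hep3B arrays alone. With each line fitted alone, the Hep3B count was thus the larger one.

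**Figure D1:**
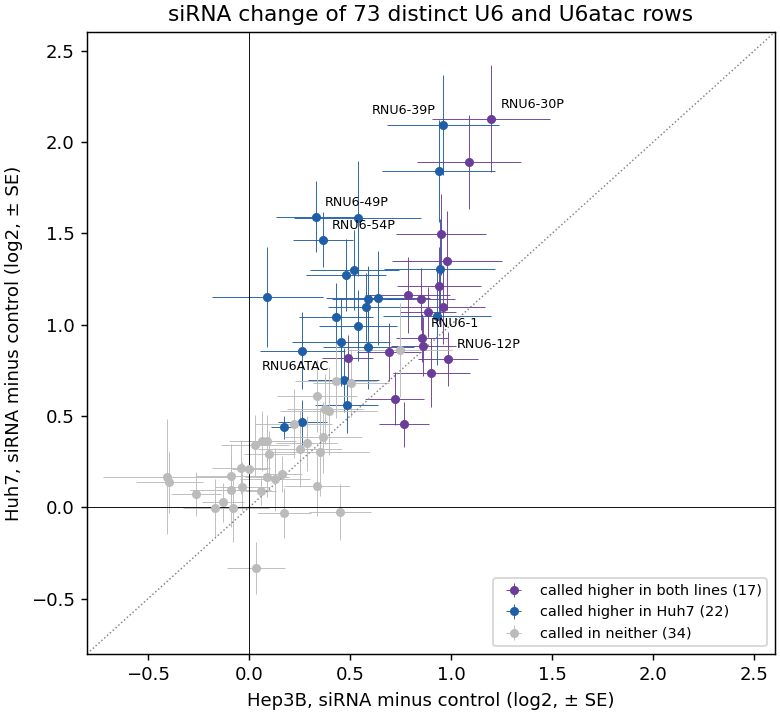
Log2 change with the siRNA (siRNA minus control) in Huh7 (vertical axis) against Hep3B (horizontal axis) for the 73 distinct U6 and U6atac rows, with bars of 1 SE from limma and a dotted line of equal change. Purple points (17) were called higher in both lines, blue points (22) in Huh7, grey points (34) in neither. The larger change was in Huh7 for 64 of the 73 rows, against 33409 of 67528 rows over the whole table.

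Among the 41 rows above background, 36 were called higher in Huh7, against 14% of all rows above background, and 17 in Hep3B, against 17.7%. Their median change was 1.05 in Huh7 and 0.69 in Hep3B on the log2 scale, while the medians over all rows above background were -0.04 in Huh7 and -0.03 in Hep3B. Called changes among these 41 rows ran from 0.45 to 2.13 in Huh7 and from 0.49 to 1.20 in Hep3B, and 21 were at least 2-fold in Huh7 and 2 in Hep3B. Counted over all 73 rows, the 3 siRNA arrays lay above the 3 control arrays for 46 rows in Huh7, against 11.5% of all rows, and for 41 in Hep3B, against 13.5%. That held in both lines for 36 rows, and the share of all rows for which it held in both was not worked out. For none of the 73 did the siRNA arrays lie below the control arrays, in either line, against 11.5% of all rows in Huh7 and 13.7% in Hep3B.

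RNU6-1 is a U6 gene of the type transcribed into functional RNA, and its signal is the same as that of RNU6-11P and RNU6-37P. It read 14.62, 14.23 and 14.58 on the Huh7 siRNA arrays, against 13.37, 13.79 and 13.49 on the Huh7 control arrays. In Hep3B it read 13.93, 13.76 and 13.66 with the siRNA, against 12.91, 12.85 and 13.03 with the control. The siRNA arrays lay above the control arrays in each line, with no overlap. The change was 0.93 ± 0.13 in Huh7 (SE, n = 3 per group, 1.90-fold, adjusted p = 0.0012) and 0.86 ± 0.13 in Hep3B (1.81-fold, adjusted p = 0.0014). The effect in Huh7 exceeded that in Hep3B by 0.07, with a 95% interval from -0.35 to 0.50 (adjusted p = 0.93), and this small difference took the opposite sign when the values were used as deposited or centred on the array medians.

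RNU6-7, another gene that RefSeq classes as small nuclear RNA, was called in Huh7 and not in Hep3B. It read 13.91, 12.67 and 13.41 with the siRNA in Huh7, against 11.68, 12.20 and 12.21 with the control. In Hep3B the siRNA arrays read 12.45, 12.21 and 11.90, against 11.18, 11.13 and 11.42 on the control arrays. No arrays overlapped between treatments in either line, and Huh7 siRNA array 2 was the lowest of its group. The change was 1.30 ± 0.27 in Huh7 (adjusted p = 0.013) and 0.94 ± 0.27 in Hep3B (adjusted p = 0.052). The difference between lines was 0.36, with an interval from -0.53 to 1.25 (adjusted p = 0.80). Without Huh7 control array 1 the Huh7 change was 1.13 (adjusted p = 0.053), and in 7 of 20 alternatives the Hep3B change passed the threshold.

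RNU6ATAC, the gene of U6atac RNA, gave 5.37, 4.71 and 5.24 on the Huh7 siRNA arrays, against 4.13, 4.60 and 4.51 on the control arrays. In Hep3B it gave 4.33, 4.68 and 4.27 with the siRNA, against 3.66, 4.17 and 4.16 with the control. The arrays did not overlap between treatments in either line, but every value lay within background. The measured differences were 0.69 ± 0.20 in Huh7 (adjusted p = 0.068) and 0.43 ± 0.20 in Hep3B (adjusted p = 0.27), and neither passed the threshold. Without Huh7 siRNA array 2 the Huh7 difference was 0.89 (adjusted p = 0.022).

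**Figure D2:**
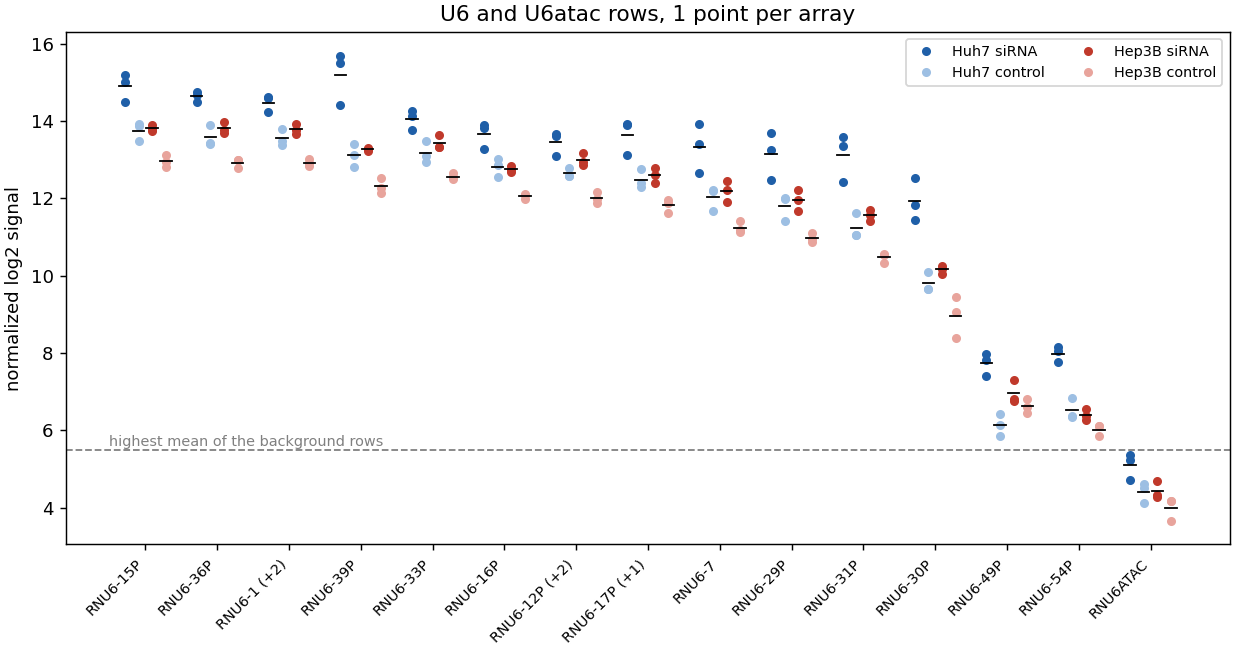
Normalized log2 signal of 15 distinct rows on each of the 12 arrays (points) with group means (black bars), in the order Huh7 siRNA, Huh7 control, Hep3B siRNA, Hep3B control for each row; a number in brackets counts further symbols with identical values, and the dashed line is the highest mean of the background rows, 5.50. RNU6ATAC lies below the line on every array, and for RNU6-49P the siRNA and control arrays overlap in Hep3B but not in Huh7.

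The pseudogene copies with the largest calls in Huh7 were RNU6-30P, RNU6-39P, RNU6-31P and RNU6-47P. RNU6-30P read 12.53, 11.44 and 11.83 with the siRNA in Huh7, against 9.67, 10.10 and 9.65 with the control, a change of 2.13 ± 0.29 (adjusted p = 0.0010). In Hep3B it read 10.26, 10.18 and 10.06 with the siRNA, against 9.06, 9.45 and 8.39 with the control, a change of 1.20 ± 0.29 (adjusted p = 0.022). It had the largest called change in each line, with Hep3B control array 3 the lowest of all its values. In 5 of 20 alternatives its Hep3B change missed the threshold, with adjusted p up to 0.079.

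RNU6-39P gave the highest value of any of the rows, with 15.69, 14.42 and 15.49 on the Huh7 siRNA arrays, against 12.82, 13.40 and 13.11 on the Huh7 control arrays. Its change there was 2.09 ± 0.28 (adjusted p = 0.00079). In Hep3B it read 13.31, 13.28 and 13.23 with the siRNA, against 12.27, 12.13 and 12.54 with the control. The Hep3B arrays did not overlap, and the change of 0.96 ± 0.28 lay at the threshold without passing it (adjusted p = 0.0501). This SE comes from the spread within all 4 groups. The SD in Hep3B was 0.04 with the siRNA and 0.21 with the control, against 0.69 and 0.29 in Huh7. The Hep3B change passed in 8 of 20 alternatives, with adjusted p from 0.0021 to 0.15 over all of them.

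RNU6-31P changed by 1.89 ± 0.26 in Huh7 (adjusted p = 0.00097) and by 1.09 ± 0.26 in Hep3B (adjusted p = 0.019). Its arrays read 13.35, 12.43 and 13.59 with the siRNA in Huh7, against 11.04, 11.61 and 11.06 with the control. In Hep3B they read 11.70, 11.42 and 11.58 with the siRNA, against 10.33, 10.53 and 10.57 with the control, without overlap in either line. RNU6-47P changed by 1.84 ± 0.28 in Huh7 (adjusted p = 0.0019), where it read 11.77, 11.14 and 11.74 with the siRNA, against 9.56, 10.28 and 9.29 with the control. Its Hep3B difference of 0.94 ± 0.28 did not pass (adjusted p = 0.059), and passed in 8 of 20 alternatives.

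Other rows rose by similar amounts in both lines. The set of RNU6-12P, RNU6-13P and RNU6-32P read 13.61, 13.09 and 13.67 with the siRNA in Huh7, against 12.59, 12.78 and 12.57 with the control, a change of 0.81 ± 0.15 (adjusted p = 0.0061). In Hep3B it read 13.17, 12.95 and 12.87 with the siRNA, against 11.97, 11.88 and 12.18 with the control, a change of 0.98 ± 0.15 (adjusted p = 0.0014). The siRNA arrays lay above the control arrays in each line, and the difference between lines was -0.17, with an interval from -0.66 to 0.32. RNU6-15P rose by 1.14 ± 0.17 in Huh7 and 0.85 ± 0.17 in Hep3B. RNU6-36P rose by 1.07 ± 0.14 in Huh7 and 0.89 ± 0.14 in Hep3B, and RNU6-33P by 0.88 ± 0.16 in Huh7 and 0.86 ± 0.16 in Hep3B. Of the 10 brightest distinct rows, the others called in both lines were RNU6-16P, the set of RNU6-17P and RNU6-18P, and RNU6-29P. In Hep3B RNU6-29P changed by 0.98 ± 0.27 (adjusted p = 0.043), a call that was lost in 10 of 20 alternatives, and the RNU6-17P set by 0.79 ± 0.21 (adjusted p = 0.036), lost in 7 of 20.

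Of the remaining rows among the 10 largest Hep3B calls, RNU6-14P changed by 1.21 ± 0.21 in Huh7 and 0.94 ± 0.21 in Hep3B, RNU6-23P by 1.10 ± 0.21 in Huh7 and 0.96 ± 0.21 in Hep3B, and RNU6-27P by 1.49 ± 0.22 in Huh7 and 0.95 ± 0.22 in Hep3B. RNU6-20P changed by 0.74 ± 0.19 in Huh7 and 0.90 ± 0.19 in Hep3B, and its Huh7 call was lost in 11 of 20 alternatives. RNU6-21P was among the 10 largest in Huh7, with 1.58 ± 0.31 (adjusted p = 0.0094). Its Hep3B difference of 0.54 ± 0.31 did not pass (adjusted p = 0.39). RNU6-22P, with a mean of 6.21, was the dimmest row called in both lines.

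**Figure D3:**
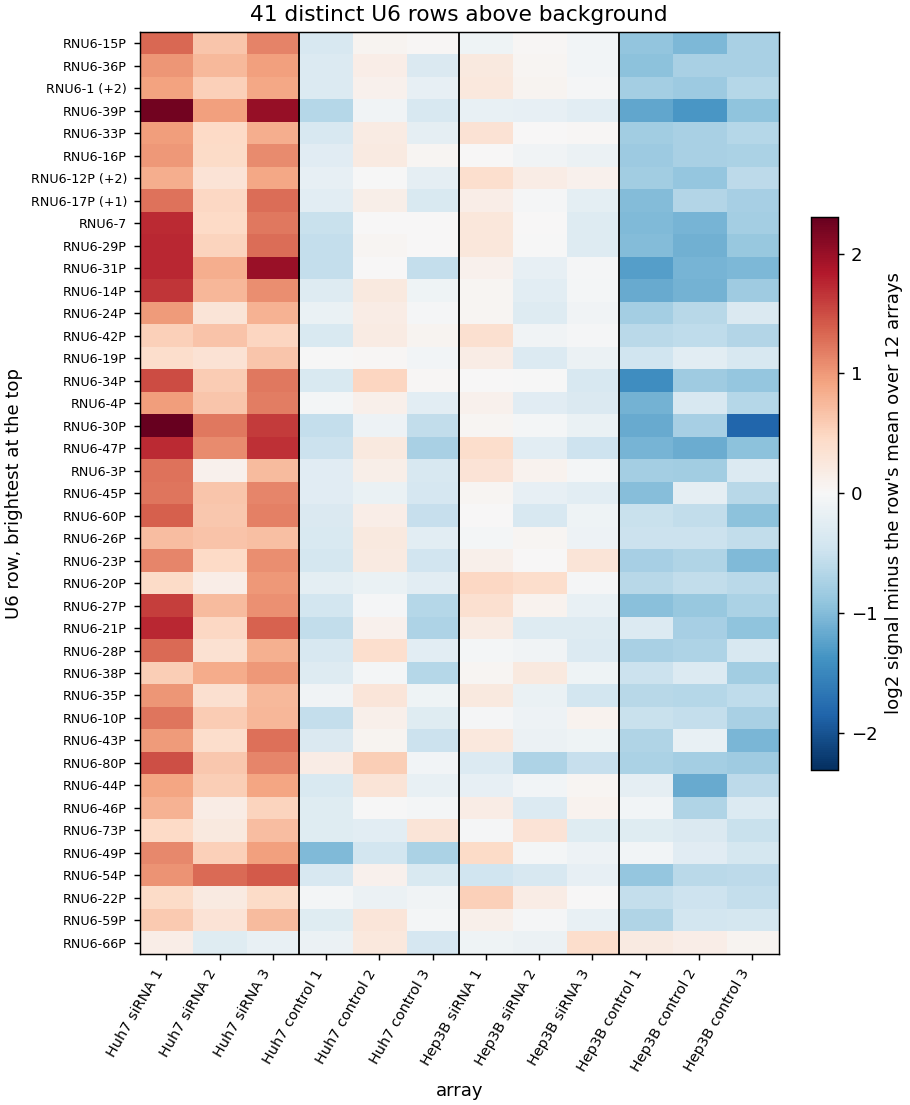
Deviation of each array from the row's mean over all 12 arrays (log2, colour scale) for the 41 distinct rows above background, brightest at the top; columns are Huh7 siRNA, Huh7 control, Hep3B siRNA and Hep3B control arrays 1 to 3. Huh7 siRNA array 2 is the lowest of its group for 38 of the 41 rows, and Huh7 control array 2 the highest of its group for 38.

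The arrays of a group differed from each other over the whole set of bright rows. The median over the 41 rows was 10.91, 10.14 and 10.77 on the Huh7 siRNA arrays, against 9.39, 9.62 and 9.25 on the Huh7 control arrays. It was 9.82, 9.74 and 9.56 on the Hep3B siRNA arrays, against 8.95, 8.91 and 8.82 on the Hep3B control arrays. The siRNA arrays lay above the control arrays in each line by this measure. Huh7 siRNA array 2 lay 0.38 below its group mean at the median row, and Huh7 control array 2 lay 0.29 above its own. At the median row of the other spliceosomal snRNAs, Huh7 siRNA array 2 deviated by -0.43 from its group mean, Huh7 control array 2 by 0.31 and Huh7 control array 1 by -0.56, the largest deviation there. With Huh7 siRNA array 2 left out 42 rows were called higher in Huh7, and with Huh7 control array 2 left out 39 were.

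The bright rows moved together across arrays. Over 12 arrays, which share the 4 groups and 1 hybridisation each, the correlation of the other 40 rows above background with RNU6-1 had a median of 0.94, and 38 of them exceeded 0.8. After the group means were subtracted the median was 0.79, with 19 of 40 over 0.8, from 0.07 for RNU6-38P to 0.97 for RNU6-33P. RNU6-66P was the 1 bright row with a negative correlation over the groups, at -0.25. It read 5.94, 5.50 and 5.61 with the siRNA in Huh7, against 5.64, 6.02 and 5.40 with the control, and its arrays overlapped in both lines. Among the 32 rows within background the median correlation with RNU6-1 was 0.41, and 0.08 after the group means were subtracted. Probes that read several copies would share signal, and how far these rows do so was not tested.

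Calls were most frequent among the brighter rows. Over the whole table, too, calls higher were more frequent above background. In Huh7 they made up 14% there, against 4.52% of all rows, and in Hep3B 17.7% against 5.76%. Shares of all rows in the level bands or on the chromosome used below were not worked out. Of 28 U6 rows with a mean over 9, 27 were called in Huh7 and 16 in Hep3B. Of 13 rows between background and 9, 9 were called in Huh7 and 1 in Hep3B, RNU6-22P. Of the 7 bright rows placed on chromosome 13, 5 were called in Huh7 and 0 in Hep3B, against 31 in Huh7 and 17 in Hep3B of the other 34. Within background 3 rows were called in Huh7, RNU6-61P, RNU6-70P and RNU6ATAC3P, and 0 in Hep3B. RNU6-61P averaged 6.14 with the siRNA and 4.98 with the control in Huh7. With background as the limit for the control arrays, its siRNA mean was at least 1.55-fold higher. Its Huh7 siRNA array 2, at 5.49, lay within background. RNU6-70P averaged 5.55 with the siRNA and 4.51 with the control in Huh7. That siRNA mean lay only 0.05 above background, with siRNA array 1 within it at 5.22, so no firm minimum fold is given. RNU6ATAC3P stayed within background with the siRNA as well, at 3.34 against 2.90, which gives no fold.

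**Figure D4:**
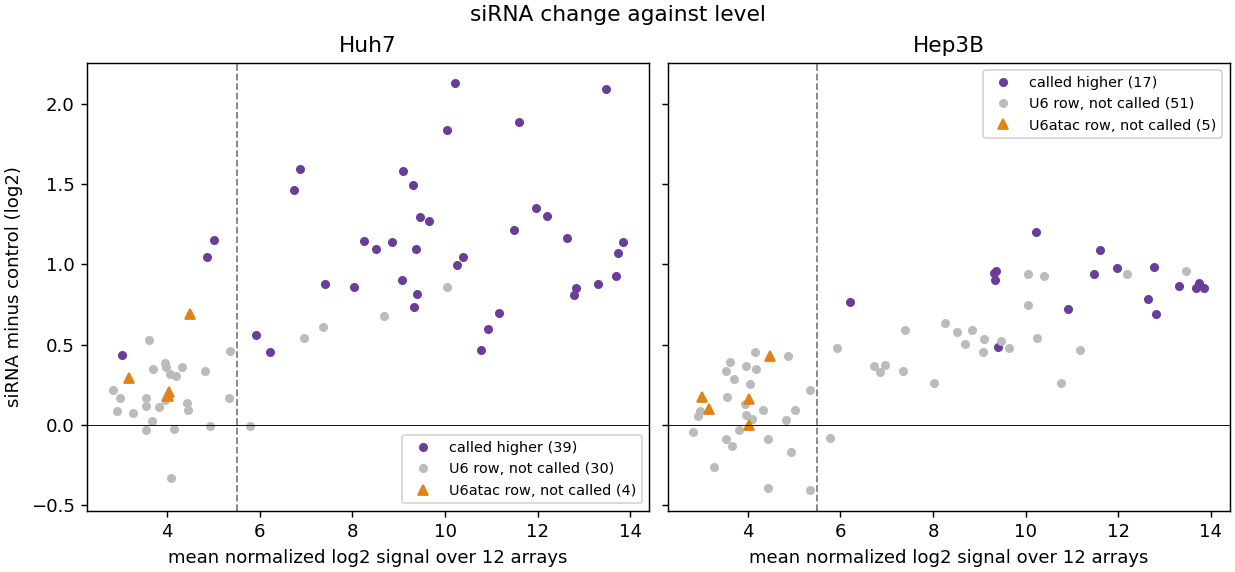
Log2 change with the siRNA (siRNA minus control) against the mean normalized log2 signal over 12 arrays for the 73 distinct rows in Huh7 (left) and Hep3B (right); the dashed line marks background at 5.50 and triangles mark U6atac rows that were not called. The called rows number 39 in Huh7 and 17 in Hep3B, and the 3 called rows left of the line are all in the Huh7 panel.

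The effect was larger in Huh7 than in Hep3B for 64 of the 73 rows, and for 37 of the 41 above background, with a median difference of 0.29 among these. Over the whole table this held for 33409 of 67528 rows, and for 7059 of 14906 above background. These counts were not worked out for values as deposited or centred on the array medians, where the RNU6-1 difference took the opposite sign. Few of the single differences could be told from the array spread. In the test of the difference itself, 2 rows were called larger in Huh7, against 0.942% of all rows, and 0 smaller, against 0.964%. Both lay above background, where 3.24% of all such rows were called larger. At an unadjusted p under 0.05 the counts were 13 larger and 0 smaller. The share of all rows at that unadjusted threshold was not worked out, and rows that moved together across arrays are not independent counts. The 2 rows called at the adjusted threshold were RNU6-49P and RNU6-54P, both dim among the rows above background.

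RNU6-49P read 7.98, 7.41 and 7.81 with the siRNA in Huh7, against 5.85, 6.43 and 6.14 with the control, a change of 1.59 ± 0.20 (adjusted p = 0.00051). In Hep3B it read 7.30, 6.82 and 6.75 with the siRNA, against 6.80, 6.61 and 6.46 with the control, a difference of 0.33 ± 0.20 that did not pass (adjusted p = 0.40). The treatments did not overlap in Huh7 and overlapped in Hep3B, and the effects differed by 1.26 ± 0.28 (adjusted p = 0.048). RNU6-54P read 7.76, 8.04 and 8.14 with the siRNA in Huh7, against 6.36, 6.83 and 6.37 with the control, a change of 1.47 ± 0.15 (adjusted p = 0.00015). In Hep3B it read 6.26, 6.36 and 6.54 with the siRNA, against 5.84, 6.11 and 6.12 with the control, a difference of 0.37 ± 0.15 (adjusted p = 0.18). No arrays overlapped in either line, and the effects differed by 1.10 ± 0.21 (adjusted p = 0.025).

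Neither call of a difference held in every fit that left out 1 array. The count was 0 without Hep3B siRNA array 2, Huh7 control array 1 or 3, or Hep3B control array 2 or 3. It was 1 without Huh7 siRNA array 1 or 3, Hep3B siRNA array 1 or 3, or Hep3B control array 1. Without Huh7 siRNA array 2 it was 3, and without Huh7 control array 2 it was 2. Over 19 alternatives the adjusted p ran from 0.028 to 0.12 for RNU6-49P and from 0.013 to 0.074 for RNU6-54P.

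Without the siRNA, U6 signal was higher in Huh7 than in Hep3B. Of the 73 rows 18 were called higher on the Huh7 control arrays, against 11% of all rows, and 1 lower, against 10.2%. All 18 were among the 41 rows above background. Over the whole table, 4360 of the 14906 rows above background were called higher in this comparison and 4121 lower. The median difference (Huh7 control minus Hep3B control) was 0.34, and 0.58 among the rows above background. For 30 rows the Huh7 control arrays lay above all Hep3B control arrays, against 17.9% of all rows, and for 4 they lay below, against 17%. RNU6-1 averaged 13.55 ± 0.21 on the Huh7 control arrays and 12.93 ± 0.09 on the Hep3B control arrays (SD, n = 3 each), a difference of 0.62 ± 0.13 (SE, adjusted p = 0.0044). Its Huh7 control arrays lay between the Hep3B control and the Huh7 siRNA arrays.

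The largest called line differences were those of RNU6-34P at 1.10 ± 0.27 (adjusted p = 0.011), RNU6-80P at 1.0 ± 0.21, RNU6-14P at 0.97 ± 0.21, RNU6-15P at 0.80 ± 0.17 and RNU6-16P at 0.76 ± 0.16. RNU6-80P read 8.19, 8.59 and 7.96 on the Huh7 control arrays, against 7.30, 7.24 and 7.20 on the Hep3B control arrays (adjusted p = 0.0046). The row called lower was RNU6-64P, at -0.45 ± 0.11 (adjusted p = 0.0094), with all values within background. The count of 18 was 9 without Hep3B control array 1, 11 without Hep3B control array 3 and 10 without Huh7 control array 2. These control arrays also enter the siRNA comparisons.

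Among the genes that transcribe U6, more were called higher than lower in each line. U6 promoters are read by the SNAPc complex and a TFIIIB that holds BRF2, BDP1 and TBP, which recruit RNA polymerase III. Of 20 measured genes of 22 listed, 18 of them above background, 7 were called higher and 3 lower in Huh7, and 11 higher and 2 lower in Hep3B. Over all rows 4.52% were called higher and 3.49% lower in Huh7, and 5.76% higher and 4.71% lower in Hep3B. Among rows above background the shares were 14% higher and 12.9% lower in Huh7, and 17.7% higher and 15.8% lower in Hep3B, and the count of genes called lower lay near these. POLR3C, a polymerase subunit, changed by 1.07 ± 0.13 in Huh7 and 1.11 ± 0.13 in Hep3B, and BDP1 by 0.78 ± 0.08 in Huh7 and 1.11 ± 0.08 in Hep3B. SNAPC1 changed by 0.93 ± 0.11 in Huh7 (adjusted p = 0.00039) and 0.53 ± 0.11 in Hep3B (adjusted p = 0.0090), and CRCP, another polymerase subunit, by 0.58 ± 0.09 in Huh7 and 0.82 ± 0.09 in Hep3B. The genes called lower in Huh7 were the polymerase subunits POLR3G, at -0.73 ± 0.11 (adjusted p = 0.0020), and POLR3GL, at -0.28 ± 0.07, and the SNAPc subunit SNAPC3, at -0.37 ± 0.09. Those called lower in Hep3B were SNAPC3, at -0.40 ± 0.09, and POLR3GL, at -0.32 ± 0.07. The median over the 20 genes was 0.09 in Huh7 and 0.38 in Hep3B, against -0.01 over all rows in each line. BRF2, which is particular to promoters of this type, was not called in either line and lay within background.

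The next lists hold the genes that finish and bind U6 RNA. Of 9 end processing and modification genes, 1 was called higher in Huh7 and 4 in Hep3B, and 0 lower. TOE1, a 3′ exonuclease, changed by 0.37 ± 0.07 in Huh7 and 0.40 ± 0.07 in Hep3B, and METTL16, which methylates U6, by 0.46 ± 0.10 in Hep3B, while TUT1, which adds uridines to the U6 3′ end, changed by 0.39 ± 0.08 there, within background. The median of the 9 was -0.03 in Huh7 and 0.08 in Hep3B. Of the 7 genes of the Lsm2-8 ring, which clasps that 3′ end, 0 were called higher in either line, 1 was called lower in Huh7 and 2 in Hep3B. The Huh7 counts of 1 gene in each list lay near the shares among rows above background, 14% higher and 12.9% lower. In Hep3B these shares were 17.7% higher and 15.8% lower. Of the 9 end processing genes 7 lay above background, and of the 7 ring genes 4 did. LSM4 changed by -0.63 ± 0.11 in Huh7 (adjusted p = 0.0038) and -0.38 ± 0.11 in Hep3B (adjusted p = 0.045). LSM5, within background by its mean of 5.28 over the 12 arrays, changed by -0.31 ± 0.09 in Hep3B (adjusted p = 0.043). The ring's median was -0.25 in Huh7 and -0.31 in Hep3B.

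Among 12 genes listed for U4/U6 assembly and recycling, 2 were called higher in Huh7 and 4 in Hep3B, and 0 lower. Of rows above background, 14% were called higher in Huh7 and 17.7% in Hep3B. The Huh7 count lay near its share. USP15, a deubiquitinase of this cycle, changed by 0.51 ± 0.09 in Huh7 and 0.86 ± 0.09 in Hep3B. PRPF3, a U4/U6 protein, changed by 0.37 ± 0.07 in Huh7 and 0.51 ± 0.07 in Hep3B (adjusted p = 0.00074). In Hep3B the U4/U6 recycling factor SART3 changed by 0.65 ± 0.08 and the helicase DHX8 by 0.75 ± 0.09. DHX8 is counted in this list although it acts at another step of splicing. The median of the 12 was -0.07 in Huh7 and 0.15 in Hep3B. Of 6 companion RNAs, 1 was called higher in Huh7 and 3 in Hep3B and 0 were called lower, and the medians were 0.22 in Huh7 and 1.04 in Hep3B. RNU4ATAC, the partner of U6atac, changed by 2.01 ± 0.42 in Huh7 (adjusted p = 0.013) and 3.34 ± 0.42 in Hep3B (adjusted p = 0.00042). The U4 RNA gene RNU4-1 differed by 0.60 ± 0.39 in Huh7 (adjusted p = 0.47) and changed by 2.24 ± 0.39 in Hep3B (adjusted p = 0.0031). RNU4-2 differed by 0.43 ± 0.34 in Huh7 (adjusted p = 0.57) and changed by 1.62 ± 0.34 in Hep3B (adjusted p = 0.0095). RN7SK, also a product of RNA polymerase III, differed by 0.01 ± 0.08 in Huh7 and -0.04 ± 0.08 in Hep3B, with a mean of 19.80 that lay close to the ceiling of the table.

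Rows of 3 other small RNA families were read against the same shares of rows above background, 14% higher and 12.9% lower in Huh7 and 17.7% higher and 15.8% lower in Hep3B. Of 23 distinct rows of other spliceosomal snRNAs above background, 12 were called higher in Huh7 and 18 in Hep3B, and 0 lower, with a median change of 0.91 in Huh7 and 2.24 in Hep3B. In the test of the difference between lines 4 of these 23 were called smaller in Huh7, against 3.17% of all rows above background, and 0 larger, against 3.24%. Of 93 rows of 5S, Y and 7SK RNAs above background, most of them copies of genes of RNA polymerase III, 0 were called higher and 4 lower in Huh7, and 1 higher and 4 lower in Hep3B, all below those shares. Of 76 snoRNA rows above background, a family added after the values were seen, 5 were called higher and 12 lower in Huh7, and 4 higher and 13 lower in Hep3B. The snoRNA rows called lower lay near the shares given, and those called higher below them.

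**Figure D5:**
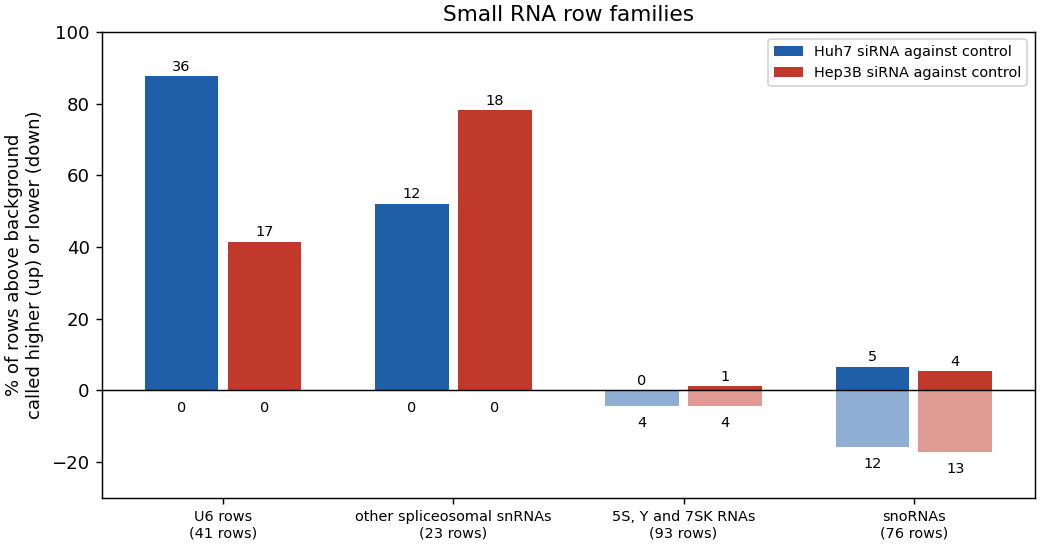
Share of distinct rows above background that were called higher (bars up) or lower (pale bars down) with the siRNA in Huh7 (blue) and Hep3B (red), for U6 rows and 3 other small RNA families; numbers on the bars count rows. Of these rows no U6 row and no other spliceosomal snRNA row was called lower in either line, and 36 of 41 U6 rows were called higher in Huh7 and 17 in Hep3B.

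Many of the copies lie inside other genes. By RefSeq, 42 of the 74 rows with a matching chromosome lay inside the interval of a protein-coding or long non-coding gene, on either strand, and 32 of these host genes had a row of their own. With the siRNA 3 of the 32 hosts were called higher and 3 lower in Huh7, and 4 higher and 5 lower in Hep3B. Each of these counts lay between the share of all rows and that of rows above background. Measured hosts stood beside 16 distinct U6 rows called higher in Huh7, carrying 18 symbols, with 2 hosts called higher and 1 lower. In Hep3B they stood beside 8 distinct rows, carrying 10 symbols, with 2 hosts called higher and 0 lower. The copies in the sets of RNU6-1 and RNU6-12P each have more than one host beside 1 signal. RNU6-47P, with a change of 1.84 in Huh7, lies in FER, which differed by 0.01 there (adjusted p = 0.99, mean 6.50). RNU6-39P lies in CCDC102B, which differed by 0.20 in Huh7 (adjusted p = 0.22, mean 4.45). RNU6-10P was called in Huh7 at 1.10 and lies in CDK6, which also rose, by 0.89 in Huh7 and 1.16 in Hep3B. RNU6-37P lies in KIF1B, which was called in Hep3B at 0.48 (adjusted p = 0.0046) and not in Huh7, where it differed by 0.18 (adjusted p = 0.30).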

How the data were processed

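RNA of 12 samples was measured on 1 array each. The authors deposited 1 table of log2 values with 1 column per array. Per the submitters' processing notes the tool was Agilent Feature Extraction 10.7.1.1, whereas per the labels' protocols labelling followed Affymetrix, and the row names are Affymetrix transcript clusters. How probes were summarised and arrays normalized is not given in the sources used here. RNA was extracted with a mirVana kit, per the labels' protocols.

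Of 70523 rows, 67528 transcript clusters were used, and 2995 rows of controls, exons, junctions or bare numbers were not. Symbols came from the platform's annotation, and 31 were updated through RefSeq synonyms. The deposited log2 values were quantile normalized, because array medians differed by 0.124, and fitted with limma 3.58.1 in R 4.3.3 (1 mean per group, 8 residual degrees of freedom, moderated with a mean-dependent prior spread). Benjamini-Hochberg adjustment of the two-sided p-values ran over all 67528 rows, and "called" means an adjusted p under 0.05. Errors after ± are SE unless marked. The SE of a row comes from the spread within all 4 groups, so it is the same for both lines. A wide spread in 1 line thus also widens the error given for the other. Figures used Python 3.11.15 with matplotlib 3.10.9. The procedure was tested on simulated data with independent normal errors, in which 200 of 67528 rows were raised in 1 line. Of changes of 0.5 on the log2 scale, 27.5% were recovered in Hep3B and 23.5% in Huh7. Of changes of 1, 77.5% were recovered in Hep3B and 78.5% in Huh7. A row that was not called may therefore still have changed.

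The members, lists and rules were chosen with earlier results of these data known. Named are the genes RefSeq classes as snRNA, the 10 largest called changes each way per siRNA comparison, 5 each way for the difference and for the control arrays, the 10 brightest rows, their hosts, and up to 3 called genes per list and comparison. Other rows named in the text were picked after their values were seen. Replicate numbers were not used as pairs: over 18 pairs of arrays with the same number, deviations from the group means correlated from -0.23 to 0.24, and 7 pairs exceeded 0.1. Pairs among the Hep3B siRNA, Hep3B control and Huh7 control arrays all correlated positively, from 0.05 to 0.24. Every negative value came from a pair with a Huh7 siRNA array. Whether arrays with the same number share a batch was not tested. Alternatives were deposited values, median centring, rows above background, identical rows tested once, 1 row per symbol, no trend, array weights, a 2-fold minimum, the replicate block, fits on the 6 arrays of a comparison, and omission of each array in turn. The number of arrays limits the precision. Sequences were not used here.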

Additional observations from a re-analysis of the deposited data

Results flagged for a closer look

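The siRNA effect on 2 rows differed between the lines in the test of the difference on all 12 arrays. Of all rows above background, 3.24% were called larger in Huh7 in this test. With each array left out in turn, RNU6-49P was called in 3 of 12 fits and RNU6-54P in 5 of 12. RNU6-49P changed by 1.59 in Huh7 and by 0.33 in Hep3B on the log2 scale, a difference of 1.26 (limma, adjusted p = 0.048), and RNU6-54P by 1.47 in Huh7 and by 0.37 in Hep3B, a difference of 1.10 (adjusted p = 0.025). RNU6-49P also stood apart on the control arrays: its 3 Huh7 control arrays lay below its 3 Hep3B control arrays, at -0.49 (adjusted p = 0.12), whereas RNU6-54P was higher in Huh7 there, at 0.50 (adjusted p = 0.035).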

How the results depend on the processing

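Among rows above background alone, Hep3B gave 26 rows called higher and the control arrays 0 called lower. A 2-fold minimum left 23 rows higher in Huh7, 2 in Hep3B, and 2 higher and 0 lower between the control arrays. Only the 6 Huh7 arrays gave 21 for Huh7, and only the 6 Hep3B arrays gave 24 for Hep3B. Median centring gave 1 row for the difference. Leaving out 1 array gave 26 to 42 rows higher in Huh7, 10 to 22 in Hep3B, 0 to 3 for the difference and 9 to 23 between the control arrays; Huh7 had 0 to 1 row lower, RNU6-65P without Huh7 siRNA array 2. With the replicate block the counts higher were 31 in Huh7, 17 in Hep3B, 1 for the difference and 15 between the control arrays. The RNU6-1 difference between lines (0.07) was -0.0859 as deposited, -0.094 with median centring, and from -0.0179 to 0.2083 with 1 array left out. Of all called rows, 56.4% in Huh7 and 55.0% in Hep3B were higher, against 70.0% and 66.2% with median centring, while no U6 row was called lower there. The planned searches of promoter motifs and of identity with RNU6-1 were not run. Signal over background limits what can be said of 32 of the 73 rows.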
